A study of Mus musculus with 14 samples.

Results

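The MYC and MAX network was followed through mouse HPC-LSK progenitor lines with or without Cdk6, before and after transformation by the BCR-ABL fusion kinase p210. The 10 genes were taken by symbol and each matched a gene row of its own among the 50686 genes of the tables. They are the Myc paralogues Myc, Mycn and Mycl, the shared partner Max, the Mxd-type antagonists Mxd1, Mxd3, Mxd4, Mxi1 and Mnt, and the Max-like factor Mlx. HPC-LSK lines are cultured blood progenitors, called LSK because they are taken to lack lineage markers and to carry Sca-1 and Kit. RNA was sequenced from 4 Cdk6 knockout (KO) libraries transformed with p210, 3 wild-type (WT) libraries transformed with p210, 3 KO untransformed libraries and 4 WT untransformed libraries, all on a C57BL/6N background. The medium of p210 lines lacked both cytokines that untransformed lines received, IL-6 at 12.5 ng/ml and SCF at 2%, so transformation and medium cannot be told apart in any comparison of p210 with untransformed lines. The p210 descriptions nevertheless contain the letters SCF, and what they stand for there is not given.

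MYC proteins bind DNA as dimers with MAX, prefer the E-box CACGTG, and are known for driving ribosome biogenesis, metabolism and cell cycle entry. MXD proteins, MXI1 and MNT take up the same partner and the same E-box and recruit SIN3 and histone deacetylases, so that the network is commonly pictured as a balance between MYC-MAX and MXD-MAX dimers. MLX is a related partner that also serves the glucose-sensing factors MLXIP and MLXIPL. In blood progenitors Myc and Mycn are known to share functions, and the BCR-ABL kinase of chronic myeloid leukaemia is known to depend on MYC for transformation. CDK6 is a cyclin D-dependent kinase that also acts on transcription.

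Because dimers of the network bind E-boxes, the 250 bases before the RefSeq transcription start (GRCm38.p6) were searched on both strands. This covered the 9 members with an entry and gave 11 windows. Myc had no entry, so its promoter was not searched. CACGTG stood in the windows of 3 members, Mnt, Mxd4 and Mlx, and in 6.02% of 32851 windows of this length. The E2F-type letters TTTGGCGC stood in the Mycn window, and in 0.417% of all windows. TTTCCCGC, another E2F-type word in 0.895% of all windows, and the STAT-type letters TTCNNNGAA, in 7.02% of all windows, were in none of the members' windows. The 4 windows with a match, those of Mnt, Mxd4, Mlx and Mycn, are printed 5′ to 3′ on the gene's strand, with the matched letters in capitals. The Mnt window is chr11:74830674-74830923 on the plus strand, with the E-box 123 to 118 bases before the start. The Mxd4 window is chr5:34187711-34187960 on the minus strand, with the E-box 219 to 214 bases before the start. The Mlx window is chr11:101087040-101087289 on the plus strand, with the E-box 40 to 35 bases before the start. The Mycn window is chr12:12941837-12942086 on the minus strand, with TTTGGCGC at 183 to 176 and at 168 to 161 bases before the start.
Mnt: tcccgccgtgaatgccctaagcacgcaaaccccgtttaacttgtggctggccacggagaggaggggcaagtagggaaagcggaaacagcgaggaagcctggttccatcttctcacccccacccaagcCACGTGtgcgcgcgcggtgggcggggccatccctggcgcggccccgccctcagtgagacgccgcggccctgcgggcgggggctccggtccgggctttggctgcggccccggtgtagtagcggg
Mxd4: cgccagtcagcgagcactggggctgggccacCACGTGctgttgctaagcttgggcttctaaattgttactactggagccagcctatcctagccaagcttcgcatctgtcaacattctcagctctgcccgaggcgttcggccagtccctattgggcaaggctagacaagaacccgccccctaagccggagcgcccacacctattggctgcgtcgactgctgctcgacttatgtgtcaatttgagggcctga
Mlx: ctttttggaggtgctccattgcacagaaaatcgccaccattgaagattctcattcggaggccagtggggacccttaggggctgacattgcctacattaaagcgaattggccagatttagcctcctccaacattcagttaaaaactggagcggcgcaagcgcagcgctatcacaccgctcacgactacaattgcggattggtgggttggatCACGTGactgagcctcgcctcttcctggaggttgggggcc
Mycn: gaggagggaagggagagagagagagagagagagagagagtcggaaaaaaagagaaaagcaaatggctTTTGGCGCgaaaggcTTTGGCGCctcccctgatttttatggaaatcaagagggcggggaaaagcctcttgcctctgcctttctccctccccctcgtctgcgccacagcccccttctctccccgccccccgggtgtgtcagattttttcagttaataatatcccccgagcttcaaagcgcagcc
A match describes these letters and was not tested as a binding site.

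Library totals were 20270348 to 50303271 counts, and 14512 genes passed the filter on low counts, among them all 10 members, Mycl only through its untransformed libraries. Levels are given as CPM, counts scaled to library sizes with TMM factors, and tests are edgeR's quasi-likelihood test with Benjamini-Hochberg adjustment over all 14512 genes and a threshold of 0.05. Cdk6, the gene removed in the KO, had 326, 578, 245 and 163 CPM in KO p210 libraries, 576, 606 and 597 CPM in WT p210 libraries, 271, 258 and 236 CPM in KO untransformed libraries and 970, 999, 1213 and 1305 CPM in WT untransformed libraries. KO over WT was -0.86 ± 0.31 in p210 lines (adjusted p = 0.147) and -2.14 ± 0.34 in untransformed lines (adjusted p = 0.00573). In p210 lines, the library labelled KO replicate 2 held Cdk6 RNA at the WT p210 level, against its label, so the members called in KO p210 lines are also given with that library removed. The progenitor marker Kit had 14.9 to 42.7 CPM in KO p210, 35.5 to 59.1 CPM in WT p210, 247 to 276 CPM in KO untransformed and 360 to 471 CPM in WT untransformed libraries. Ly6a, which encodes Sca-1, had 0.553 to 29.1 CPM in KO p210, 10.3 to 13.9 CPM in WT p210, 26.4 to 42.2 CPM in KO untransformed and 13.6 to 112 CPM in WT untransformed libraries. Of 8 progenitor markers, 3 were higher and 5 lower with p210 in each genotype. Gata2 was higher, at 392 to 609 against 169 to 226 CPM in KO and 680 to 1038 against 307 to 412 CPM in WT lines. Group ranges of the summed 8 markers all overlapped, at 1697 to 2328 CPM in KO p210, 1862 to 2331 CPM in WT p210, 2012 to 2459 CPM in KO untransformed and 1963 to 2819 CPM in WT untransformed libraries. Defining lymphoid markers were near 0, with a summed level of at most 1.10 CPM over 10 genes in any library. The labels do not say whether replicates were separate cultures or separate derivations, so p-values measure only the spread between these samples. In these bulk libraries fewer cells of a type and less RNA per cell cannot be told apart.

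Set side by side per length, in the authors' TPM, Myc was the most abundant member in every group. Myc averaged 150 ± 27.9 TPM in KO p210 (SD, n = 4), 265 ± 214 TPM in WT p210 (n = 3), 189 ± 26.8 TPM in KO untransformed (n = 3) and 213 ± 32.2 TPM in WT untransformed libraries (n = 4). Max came next, at 85.6 ± 4.75 TPM in KO p210, 97.0 ± 11.8 TPM in WT p210 and 105 ± 3.28 TPM in KO untransformed libraries. WT untransformed libraries placed Mnt next instead, at 117 ± 14.8 TPM, though its range overlapped that of Max, at 98.7 ± 4.96 TPM. Mlx, Mnt and Mxd4 followed in KO p210 libraries within overlapping ranges, between 50.7 and 73.2 TPM. In WT p210 libraries Mycn came before these genes, at 70.9 ± 53.9 TPM, with a range that overlapped those of Max and Mlx. The order ended in all groups with Mxd3, at 6.77 to 16.0 TPM over all libraries, and Mycl, at 0 to 0.561 TPM.

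Myc (chromosome 15, 61985391 to 61990374, GRCm38, ENSMUSG00000022346.15) had 110, 144, 156 and 127 CPM in KO p210 libraries. It had 387, 169 and 76.2 CPM in WT p210 libraries, 174, 168 and 128 CPM in KO untransformed libraries and 187, 145, 129 and 165 CPM in WT untransformed libraries. WT p210 libraries held both the highest and the lowest Myc level of the study, a 5.08-fold range, against ranges of 1.35-fold to 1.44-fold in the other groups. All 4 group ranges overlapped. The log2 fold change of p210 over untransformed was -0.22 ± 0.39 in KO lines (SE, adjusted p = 0.689) and 0.43 ± 0.39 in WT lines (adjusted p = 0.397). The WT value turned to -0.37 (adjusted p = 0.318) without WT p210 replicate 1, and passed the threshold at 0.82 (adjusted p = 0.0405) without WT p210 replicate 3. KO over WT was -0.65 ± 0.39 in p210 lines (adjusted p = 0.3797) and 0.00 ± 0.39 in untransformed lines (adjusted p = 0.997). The p210 value passed narrowly at -1.06 (adjusted p = 0.0498) without WT p210 replicate 3 and turned to 0.13 (adjusted p = 0.897) without WT p210 replicate 1. The SD of log2 CPM among WT p210 libraries, 1.17, was above that of 95.2% of 10149 genes with at least 5 CPM on average, as a description of 3 libraries.

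Code and letter of the descriptions were read as naming a line within a genotype, which sets 6 p210 libraries beside their untransformed partners. Myc stood at 387 CPM with p210 against 187 CPM without it in the WT line numbered 1. In the WT line numbered 2 it stood at 169 CPM with p210 against 145 CPM without, and in the WT line numbered 3 at 76.2 CPM with p210 against 129 CPM without. With p210 against without, the 3 KO lines had 110 against 174 CPM, 144 against 168 CPM and 127 against 128 CPM. Blocking on the line gave 0.18 (adjusted p = 0.726) for p210 over untransformed in WT lines and -0.30 (adjusted p = 0.538) in KO lines.

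Mycn (chromosome 12, 12936096 to 12941914, minus strand, ENSMUSG00000037169.14), the paralogue best known from neural cells and early blood progenitors, had 45.7, 23.4, 9.72 and 7.06 CPM in KO p210 libraries. It had 124, 44.5 and 36.3 CPM in WT p210 libraries, 15.04, 8.59 and 13.9 CPM in KO untransformed libraries and 27.8, 29.5, 58.8 and 55.5 CPM in WT untransformed libraries. Every KO untransformed library lay below every WT untransformed library, while in p210 lines KO replicate 1 reached into the WT range. KO over WT was -1.78 ± 0.65 in untransformed lines (adjusted p = 0.0826) and -1.67 ± 0.61 in p210 lines (adjusted p = 0.152), so neither passed. DESeq2 called both, at -1.80 (adjusted p = 0.0149) in untransformed lines and -1.67 (adjusted p = 0.0470) in p210 lines, and the sign held in every alternative run. The untransformed value also passed, at -1.78 (adjusted p = 0.0196), when only the groups compared were fitted, and the p210 value at -2.35 (adjusted p = 0.0430) without KO p210 replicate 1.

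Between p210 and untransformed lines the direction of Mycn followed the code in the descriptions. With p210, lines of the first code held 45.7 against 15.04 CPM and 23.4 against 8.59 CPM in KO, and 124 against 27.8 CPM and 44.5 against 29.5 CPM in WT. Lines of the second code held 7.06 CPM with p210 against 13.9 CPM without it in KO, and 36.3 against 58.8 CPM in WT. Mycn was thus higher with p210 in the 4 lines of the first code and lower in the 2 lines of the second code that have both states. The log2 fold changes in first-code libraries alone were 1.54 (adjusted p = 0.0943) in KO and 1.55 (adjusted p = 0.0947) in WT lines, and in second-code libraries alone -0.72 (adjusted p = 0.164) in KO and -0.68 (adjusted p = 0.143) in WT lines. The pooled values, 0.77 ± 0.63 in KO (adjusted p = 0.363) and 0.67 ± 0.61 in WT lines (adjusted p = 0.406), did not pass, and the difference between codes was not tested. What the code stands for is not given.

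Mycl (chromosome 4, 122995652 to 123002485, ENSMUSG00000028654.13), the third paralogue, was at the edge of detection. It had 0 counts in all 7 p210 libraries, 8, 18 and 12 counts in KO untransformed libraries and 11, 2, 0 and 2 counts in WT untransformed libraries. KO p210 libraries were thus at least 14.6-fold lower than KO untransformed libraries. This took a floor of 3 counts over the p210 group, which covers counting error only. The same floor gave 2.90-fold for WT p210 libraries against the pooled WT untransformed counts. That WT value rests mostly on the WT untransformed library with 11 counts, as the others held 2, 0 and 2 counts. It is no bound for the WT group as a whole, and was not calculated without that library. Because Mycl passed the count filter only through the untransformed groups, it is given no test and is left out of the counts of members that follow.

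Bmyc, a rodent paralogue that lacks the DNA-binding end, had its lowest counts in KO p210 libraries. It had 20, 2, 0 and 0 counts in KO p210 libraries, 70, 5 and 21 counts in WT p210 libraries, 182, 143 and 296 counts in KO untransformed libraries and 59, 214, 61 and 82 counts in WT untransformed libraries. Every KO p210 library lay below every KO untransformed library (adjusted p = 0.0113, lost in either code alone), while in WT lines the test did not pass (adjusted p = 0.425). Mycs had 0 counts in all libraries.

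**Figure D1:**
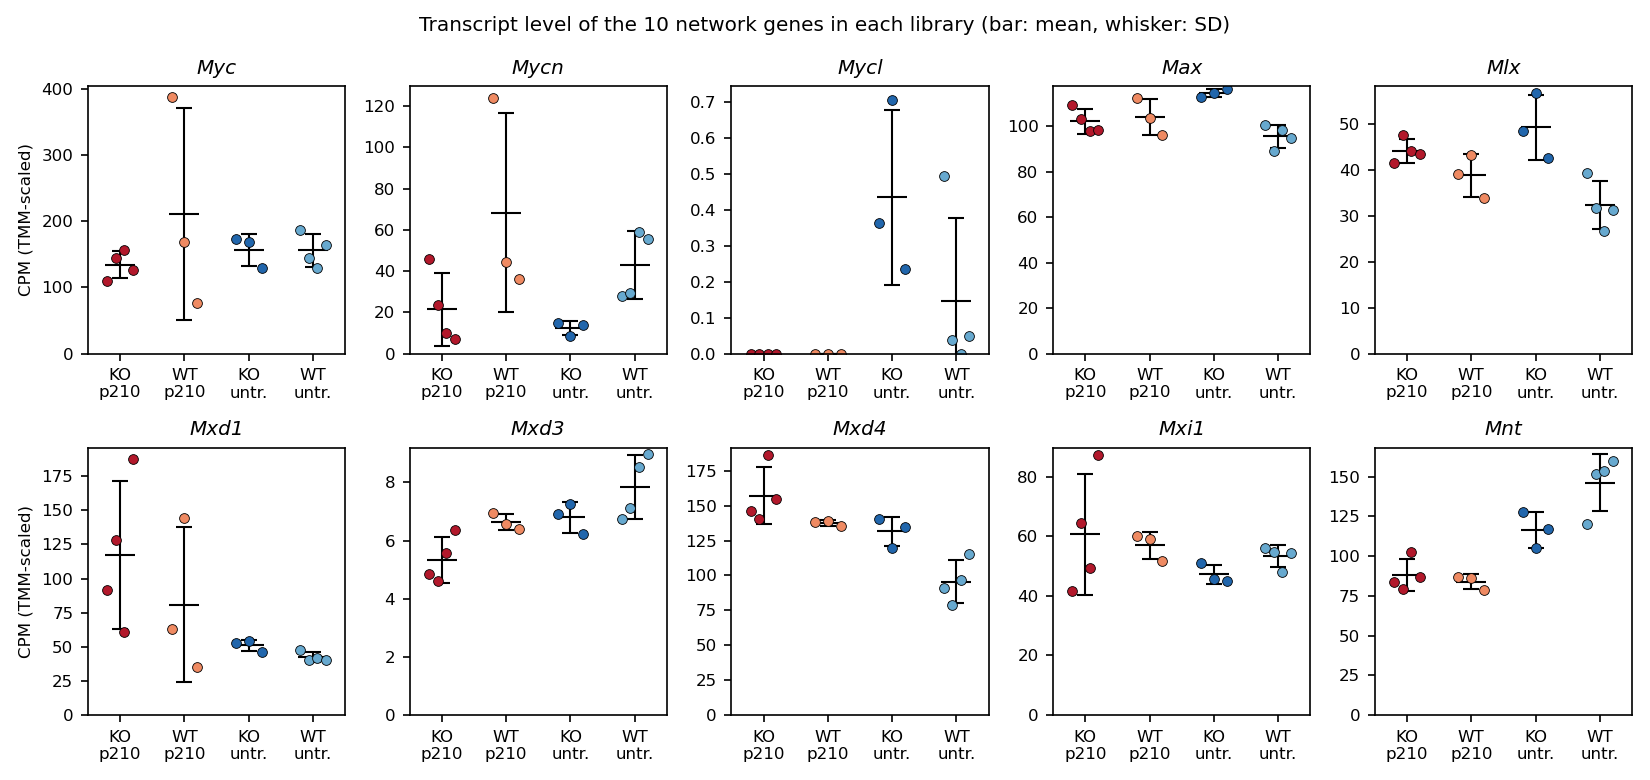
Transcript level of the 10 members in each library, in CPM on TMM-scaled library sizes on linear axes from 0, with points for libraries, bars for group means and whiskers for SD, for KO p210, WT p210, KO untransformed (untr.) and WT untransformed lines. Mnt lies at 78.7 to 103 CPM in p210 libraries and at 105 to 160 CPM in untransformed libraries, while Myc reaches from 76.2 to 387 CPM within the WT p210 group.

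Among the antagonists, Mnt (chromosome 11, 74830920 to 74845725, ENSMUSG00000000282.12) moved most clearly. MNT is the widely expressed MAX partner that represses E-box genes in cycling and resting cells alike. Mnt had 83.9, 79.4, 103 and 86.9 CPM in KO p210 libraries, 87.0, 86.1 and 78.7 CPM in WT p210 libraries, 127, 105 and 117 CPM in KO untransformed libraries and 120, 152, 153 and 160 CPM in WT untransformed libraries. All p210 libraries lay below all untransformed libraries, so any pairing of lines would show a fall and the pairing adds no support. It fell with p210 by 0.40 ± 0.11 on the log2 scale in KO lines (adjusted p = 0.0149) and by 0.80 ± 0.11 in WT lines (adjusted p = 0.000271). The WT call held in all 27 alternatives. It was -0.66 in the first code alone (adjusted p = 0.0210) and -1.02 in the second, which holds 1 WT p210 library. The KO call was lost when KO untransformed replicate 1 (adjusted p = 0.0819) or replicate 3 (adjusted p = 0.0506) was left out. It was also lost in the second code alone, at -0.30 with 1 KO untransformed library. The KO call held at -0.35 (adjusted p = 0.0413) once the library labelled KO p210 replicate 2 was removed. KO over WT was -0.33 ± 0.11 in untransformed lines (adjusted p = 0.0669) and 0.07 ± 0.11 in p210 lines (adjusted p = 0.783). The untransformed value passed in 5 of 26 alternatives. These were DESeq2 (adjusted p = 0.0248), library size scaling (adjusted p = 0.0345) and upper quartile scaling (adjusted p = 0.0427). The others were the fits without WT untransformed replicate 1 (adjusted p = 0.0130) and without KO p210 replicate 3 (adjusted p = 0.0460). The test of whether the fall with p210 differed between genotypes did not pass, at 0.40 ± 0.16 (adjusted p = 0.306).

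Mxd4 (chromosome 5, 34173883 to 34187720, minus strand, ENSMUSG00000037235.13), an MXD gene known from differentiating cells, moved the other way in WT lines. It had 146, 141, 186 and 155 CPM in KO p210 libraries, 138, 139 and 135 CPM in WT p210 libraries, 140, 120 and 134 CPM in KO untransformed libraries and 90.8, 78.8, 97.0 and 116 CPM in WT untransformed libraries. WT untransformed libraries were the low group, and no library of the other 3 groups fell into their range. Mxd4 rose with p210 in WT lines by 0.53 ± 0.12 (adjusted p = 0.00561). Among 27 alternatives this call was lost only in the second code alone, at 0.32 with 1 WT p210 library. In KO lines p210 over untransformed was 0.25 ± 0.12 (adjusted p = 0.128). These groups were barely apart in CPM, at 140.7 CPM or more in KO p210 and 140.5 CPM or less in KO untransformed libraries, and they overlapped in TPM. KO over WT was 0.46 ± 0.12 in untransformed lines (adjusted p = 0.0290) and 0.19 ± 0.12 in p210 lines (adjusted p = 0.429). The untransformed call was lost in 9 of 26 alternatives, among them library size scaling (adjusted p = 0.0726) and the removal of any of WT untransformed replicates 1, 2 and 3 and KO untransformed replicates 1, 2 and 3 (adjusted p = 0.0616 to 0.128). On the authors' TPM scale the untransformed groups overlapped, at 45.3 to 54.3 TPM in KO and 34.6 to 50.4 TPM in WT, as did the KO and WT p210 groups, which were apart in CPM.

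Mxd1 (chromosome 6, 86647042 to 86669161, minus strand, ENSMUSG00000001156.9), the antagonist known to be induced as granulocytes mature, was scattered in p210 lines and rose in the KO lines among them. It had 91.7, 128, 61.0 and 188 CPM in KO p210 libraries, 63.2, 144 and 35.1 CPM in WT p210 libraries, 52.6, 54.1 and 46.2 CPM in KO untransformed libraries and 47.7, 40.3, 41.7 and 40.4 CPM in WT untransformed libraries. Every KO p210 library exceeded every KO untransformed library, while WT p210 replicate 3 lay below all WT untransformed libraries. The log2 fold change of p210 over untransformed was 1.20 ± 0.43 in KO lines (adjusted p = 0.0469) and 0.93 ± 0.42 in WT lines (adjusted p = 0.0969). The KO call was lost in 20 of 27 alternatives, with the line as a block at 1.36 (adjusted p = 0.0676), on removal of the library labelled KO p210 replicate 2 at 1.16 (adjusted p = 0.0836), and without any of the 3 KO untransformed libraries (adjusted p = 0.0996 to 0.129) among them. The WT value passed at 1.27 (adjusted p = 0.0258) without WT p210 replicate 3. KO over WT did not pass in p210 lines, at 0.54 ± 0.42 (adjusted p = 0.534), or in untransformed lines, at 0.26 ± 0.42 (adjusted p = 0.708). Neutrophil and monocyte markers, the cell types in which Mxd1 is best known, summed to 6843 to 23496 CPM in KO p210, 1903 to 7017 CPM in WT p210, 23052 to 31829 CPM in KO untransformed and 312 to 10241 CPM in WT untransformed libraries, with Ly6g at 0 outside KO p210. Of the 14 tested markers 8 had positive and 6 negative fold changes with p210 in each genotype, with medians of 0.32 in KO and 0.56 in WT lines. Past the threshold 0 rose in either genotype, 3 fell in KO and 2 in WT lines, where 37.2% of all genes passed in KO and 39.5% in WT lines. The WT rises numbered 2 without WT untransformed replicate 1 and 1 without WT p210 replicate 3. The KO falls numbered 1 with the line as a block and without KO untransformed replicate 1 or 2 or KO p210 replicate 1, 2 or 3. The WT falls numbered 0 with the line as a block, and 0 or 1 without any of 12 libraries. Their part in the Mxd1 values was not tested.

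Mxd3 and Mxi1 did not pass in any of the 4 comparisons with TMM scaling of all libraries. Mxd3 (chromosome 13, 55325168 to 55329758, minus strand, ENSMUSG00000021485.13), known for expression in S phase, had 4.60 to 6.36 CPM in KO p210, 6.40 to 6.94 CPM in WT p210, 6.23 to 7.25 CPM in KO untransformed and 6.74 to 8.98 CPM in WT untransformed libraries. KO p210 libraries lay below WT p210 libraries without overlap, at -0.31 ± 0.16 (adjusted p = 0.299), and p210 over untransformed was -0.35 ± 0.16 in KO lines (adjusted p = 0.106) and -0.24 ± 0.16 in WT lines (adjusted p = 0.252). The KO p210 value passed with library size scaling, at -0.46 (adjusted p = 0.0417), and in the first code alone, at -0.59 (adjusted p = 0.0443). In TPM the p210 groups lay below the untransformed groups without overlap in both genotypes, with ratios of means of 0.722 in KO and 0.764 in WT lines, whereas in CPM they overlapped. Mxi1 (chromosome 19, 53310506 to 53375810, ENSMUSG00000025025.13), also called Mxd2, had 41.5, 64.4, 49.2 and 87.4 CPM in KO p210 libraries, against 51.6 to 60.2 CPM in WT p210, 45.1 to 50.9 CPM in KO untransformed and 47.9 to 56.1 CPM in WT untransformed libraries. Its widest spread was thus in KO p210 lines, and the p210 effect there was 0.36 ± 0.20 (adjusted p = 0.172), passing at 0.51 (adjusted p = 0.0362) without KO p210 replicate 1. In TPM, Mxi1, Mxd3 and Mnt of KO untransformed libraries lay below those of WT untransformed libraries without overlap, which was not so in CPM. Conversely, Max, Mxd4 and Mlx of these groups overlapped in TPM but not in CPM.

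Max and Mlx, the partners, passed between KO and WT untransformed lines. Max (chromosome 12, 76937269 to 76962201, minus strand, ENSMUSG00000059436.13) had 109, 103, 97.9 and 98.3 CPM in KO p210 libraries, 112, 104 and 96.3 CPM in WT p210 libraries, 113, 115 and 116 CPM in KO untransformed libraries and 101, 89.0, 98.3 and 94.8 CPM in WT untransformed libraries. In CPM, KO untransformed libraries stood above all others, though only narrowly above WT p210 replicate 1. In TPM that library was the highest, at 110 TPM against 102 to 108 TPM in KO untransformed libraries. KO over WT was 0.26 ± 0.07 in untransformed lines (adjusted p = 0.0233) and -0.03 ± 0.07 in p210 lines (adjusted p = 0.868), and p210 over untransformed was -0.17 ± 0.07 in KO (adjusted p = 0.0645) and 0.12 ± 0.07 in WT lines (adjusted p = 0.162). The genotype call was lost in 12 of 26 alternatives, among them library size scaling at 0.16 (adjusted p = 0.156) and the removal of any of WT untransformed replicates 2, 3 and 4 or KO untransformed replicates 1, 2 and 3 (adjusted p = 0.0541 to 0.126). The p210 value of Max in KO lines was close to the threshold and passed in 5 of 27 alternatives. These were RLE scaling (adjusted p = 0.0484), upper quartile scaling at -0.24 (adjusted p = 0.0141), library size scaling at -0.28 (adjusted p = 0.0140), DESeq2 at -0.18 (adjusted p = 0.0228) and the fit without KO p210 replicate 1 (adjusted p = 0.0412). KO p210 libraries lay below KO untransformed libraries in CPM and in TPM without overlap.

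Mlx (chromosome 11, 101087277 to 101092207, ENSMUSG00000017801.15) had 41.4, 47.8, 44.3 and 43.4 CPM in KO p210 libraries, 39.2, 43.3 and 34.0 CPM in WT p210 libraries, 48.5, 56.8 and 42.7 CPM in KO untransformed libraries and 39.4, 31.8, 26.8 and 31.3 CPM in WT untransformed libraries. KO untransformed libraries exceeded WT untransformed libraries without overlap, by 0.61 ± 0.13 on the log2 scale (adjusted p = 0.0138), whereas in TPM the groups met, at 71.5 to 91.2 TPM in KO and 50.1 to 72.4 TPM in WT. The call was lost in 4 of 26 alternatives. These were the fits without KO untransformed replicate 1 (adjusted p = 0.050003) or replicate 2 (adjusted p = 0.0907) and each code alone. The value was 0.56 in the first code (adjusted p = 0.0804) and 0.52 in the second. The second code holds 1 KO untransformed library, so the loss of a call there cannot be weighed. In p210 lines KO over WT was 0.19 ± 0.13 (adjusted p = 0.483). For p210 over untransformed, Mlx was at -0.16 in KO (adjusted p = 0.381) and 0.27 in WT lines (adjusted p = 0.132), where it passed without WT untransformed replicate 1, at 0.35 (adjusted p = 0.0402). Mlxip, the MLX partner also called MondoA, rose with p210 by 0.58 ± 0.10 in KO lines (adjusted p = 0.00119) and by 0.44 ± 0.10 in WT lines (adjusted p = 0.00506). Mlxipl was close to 0, with at most 0.180 CPM in any library.

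**Figure D2:**
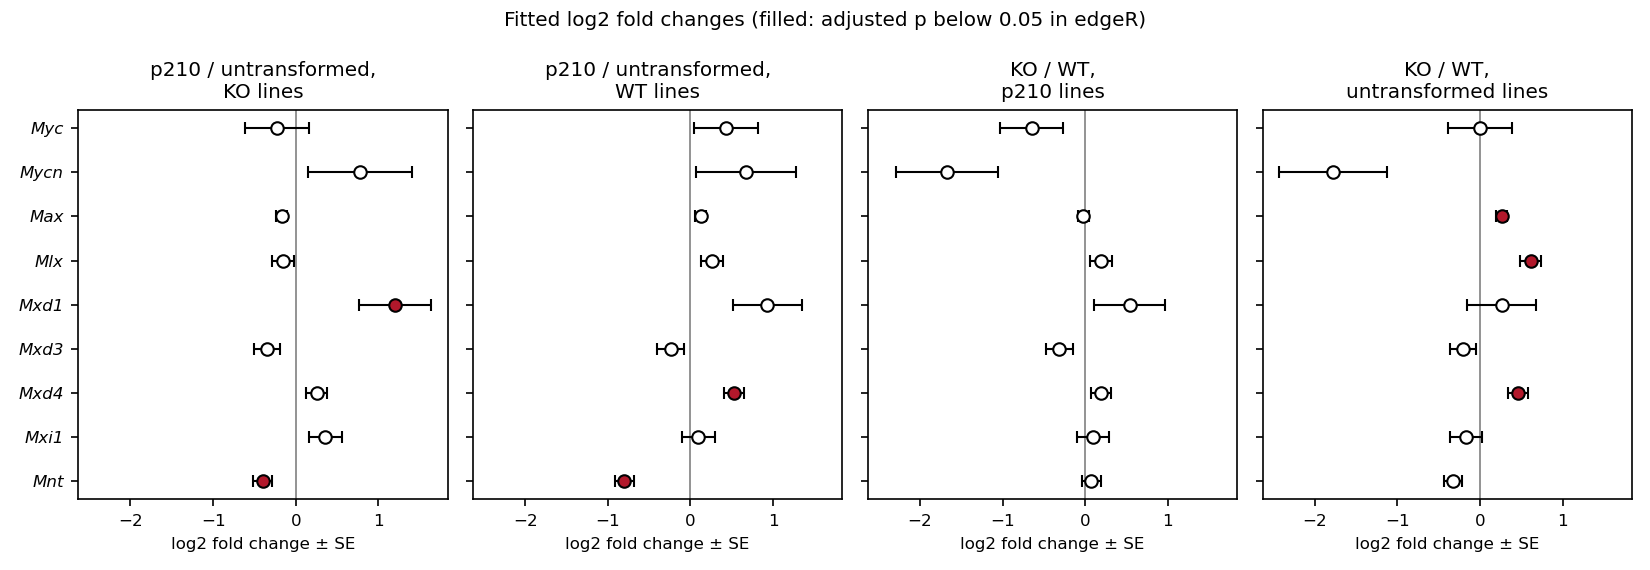
Fitted log2 fold changes of 9 members (Mycl left out) in the 4 comparisons, with whiskers for SE and filled points for an adjusted p below 0.05 in edgeR. Mnt is filled on the left of 0 in both p210 comparisons, at -0.40 in KO and -0.80 in WT lines, and no point is filled for KO over WT in p210 lines.

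Counted over the 9 members other than Mycl, 2 passed for p210 over untransformed in KO lines (Mxd1 higher, Mnt lower), where 37.2% of all genes tested passed, 19.2% higher and 18% lower. In WT lines 2 passed (Mxd4 higher, Mnt lower), where 39.5% of all genes passed, 21.9% higher and 17.6% lower. For KO over WT in p210 lines 0 of 9 passed, where 4.44% of all genes passed, 0.882% higher and 3.56% lower. In untransformed lines 3 of 9 passed (Max, Mxd4 and Mlx, all higher), where 15.2% of all genes passed, 8.73% higher and 6.5% lower. For KO over WT in p210 lines, Mycn alone of the 9 had an unadjusted p under 0.05 in edgeR, as did 2881 of 14512 genes. DESeq2 called 1 member there, and 10% of all genes. Between p210 and untransformed KO lines 4 of 9 members did not overlap in CPM (Mxd1 and Mxd4 higher, Max and Mnt lower), as did 46.1% of all genes, 22.6% higher and 23.5% lower. In WT lines 2 did not overlap (Mxd4 higher, Mnt lower), as did 45% of all genes, 23.5% higher and 21.6% lower. Between KO and WT, 2 did not overlap in p210 lines (Mxd4 higher, Mxd3 lower), as did 13.3% of all genes, 5.64% higher and 7.7% lower. In untransformed lines 4 did not overlap (Max, Mxd4 and Mlx higher, Mycn lower), as did 39.7% of all genes, 20.8% higher and 18.9% lower. The test of a difference between genotypes in the p210 effect called 0 of 9 members and 0.0345% of all genes in edgeR. DESeq2 also called 0 members there, and 2.82% of all genes. In edgeR 3 of 9 members, Max, Mnt and Mlx, had an unadjusted p under 0.05 in this test, as did 2041 of 14512 genes. The p210 comparisons share libraries with the genotype comparisons, so these counts are not independent of each other. Scaling by library size alone moved the median of all genes to between -0.12 and -0.10 in the 4 comparisons, against -0.02 to 0.02 with TMM.

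Set as a balance, the summed Myc paralogues stood at 161, 185, 191 and 141 TPM in KO p210 libraries, 637, 241 and 129 TPM in WT p210 libraries, 225, 207 and 173 TPM in KO untransformed libraries and 284, 232, 245 and 286 TPM in WT untransformed libraries. The 5 Mxd-type genes together varied less, at 171 to 237 TPM in KO p210, 166 to 220 TPM in WT p210, 180 to 210 TPM in KO untransformed and 208 to 251 TPM in WT untransformed libraries. The ratio of the sums was 0.848 ± 0.170 in KO p210 (SD, n = 4), 1.66 ± 1.26 in WT p210 (n = 3), 1.03 ± 0.141 in KO untransformed (n = 3) and 1.14 ± 0.158 in WT untransformed lines (n = 4). All group ranges of the ratio overlapped except KO p210, at 0.593 to 0.942, against WT untransformed, at 1.02 to 1.36. WT p210 replicate 1 alone reached 3.10, and the other 2 WT p210 libraries had 1.09 and 0.779.

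The make-up of the antagonist sum differed more than its size. Mnt made up 22.8% to 34.6% of the Mxd-type sum in KO p210, 26.9% to 33.9% in WT p210, 40.4% to 43.1% in KO untransformed and 45.8% to 53.8% in WT untransformed libraries. No p210 library reached the untransformed range, and KO and WT untransformed ranges did not meet either. Mxd4 made up 22.2% to 34.2% in KO p210, 23.8% to 31.8% in WT p210, 25.2% to 27.0% in KO untransformed and 15.2% to 20.1% in WT untransformed libraries. Mxd1 ranged most widely, from 13.4% to 32.3% in KO p210 and from 9.90% to 29.5% in WT p210, against 11.1% to 13.7% in KO untransformed and 8.42% to 11.9% in WT untransformed libraries. Mycn made up 4.40% to 25.5% of the paralogue sum in KO p210 and 17.9% to 28.2% in WT p210, against 4.04% to 8.17% in KO untransformed and 10.9% to 27.3% in WT untransformed libraries. These shares are descriptions of sums over the members and were given no test.

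**Figure D3:**
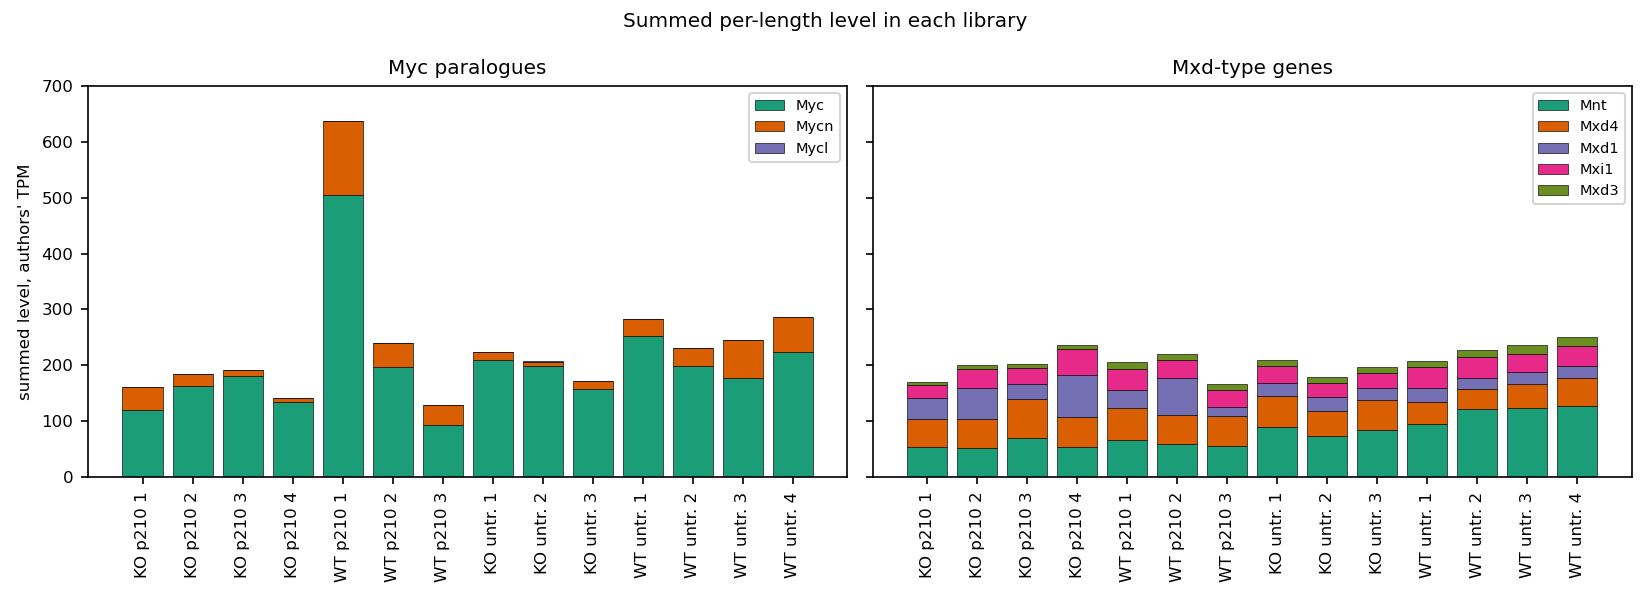
Summed level in the authors' TPM for each library, stacked by gene, for the Myc paralogues on the left and the Mxd-type genes on the right, ordered KO p210, WT p210, KO untransformed (untr.) and WT untransformed. WT p210 replicate 1 stands out on the left at 637 TPM, and on the right the Mnt segment is the largest in every untransformed library.

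Genes through which the network is known to act were read as lists, whose counts stand beside shares of 37.2% and 39.5% called among all genes for p210 over untransformed in KO and in WT lines. Of 25 nucleolar and ribosome biogenesis targets, 4 rose and 0 fell with p210 in KO lines (median log2 fold change 0.00, all genes -0.01), and 4 rose and 6 fell in WT lines (median -0.13, all genes 0.02). Gnl3, which encodes the nucleolar GTPase nucleostemin, rose by 0.65 ± 0.13 in KO (adjusted p = 0.00266) and 0.46 ± 0.13 in WT lines (adjusted p = 0.0148, lost with the line as a block and without WT p210 replicate 1). In WT lines Nop56 rose by 0.60 ± 0.16 (adjusted p = 0.0106), whereas its partner in the box C/D complex, Nop58, fell by 0.65 ± 0.12 (adjusted p = 0.00135). These counts were unsteady. With the line as a block they were 1 up and 0 down in KO and 1 up and 2 down in WT lines, with library size scaling 1 up and 3 down in KO and 1 up and 9 down in WT lines, and without WT p210 replicate 1 or WT untransformed replicate 4 the rises in WT lines numbered 1 and 2. The falls in WT lines numbered 2 without WT untransformed replicate 2 or WT p210 replicate 3, and 3 without WT p210 replicate 2. The rises in KO lines numbered 1 when KO untransformed replicate 2 was left out, 2 for KO untransformed replicate 1 or 3 or KO p210 replicate 1, and 8 for KO p210 replicate 4.

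Of 25 metabolism and translation targets, 5 rose and 2 fell with p210 in KO lines (median -0.01), and 4 rose and 6 fell in WT lines (median -0.12). The glutamine transporter gene Slc1a5 rose by 0.64 ± 0.09 in KO (adjusted p = 0.000389) and 0.40 ± 0.09 in WT lines (adjusted p = 0.00468), and the helicase gene Eif4a1 by 0.55 ± 0.09 in KO (adjusted p = 0.00104) and 0.39 ± 0.09 in WT lines (adjusted p = 0.00559). Tfam, which packages mitochondrial DNA, fell by 0.35 ± 0.07 in KO (adjusted p = 0.00301) and by 0.58 ± 0.07 in WT lines (adjusted p = 0.000140). With the line as a block the falls numbered 1 in KO and 2 in WT lines, and without WT p210 replicate 3 they numbered 3 in WT lines. In KO lines they numbered 4 when the library labelled KO p210 replicate 2 was removed, and 1 without KO untransformed replicate 1 or 3 or KO p210 replicate 3 or 4.

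Of 12 cell cycle targets, 2 rose and 3 fell with p210 in KO lines (median -0.20), and 2 rose and 5 fell in WT lines (median -0.21). Ccnd2, which encodes cyclin D2, rose by 0.91 ± 0.15 in KO (adjusted p = 0.000892) and 1.11 ± 0.15 in WT lines (adjusted p = 0.000198). E2f1 fell by 0.40 ± 0.09 in KO (adjusted p = 0.00482) and by 0.54 ± 0.09 in WT lines (adjusted p = 0.000821), and Cdk4 by 0.34 ± 0.07 in KO (adjusted p = 0.00262) and by 0.36 ± 0.07 in WT lines (adjusted p = 0.00197). In KO lines the rises numbered 1 with the line as a block, without any KO untransformed library and without KO p210 replicate 2 or 3. Proliferation markers moved beside them, summing to 1988 to 2411 CPM in KO p210, 2121 to 2439 CPM in WT p210, 2272 to 2577 CPM in KO untransformed and 3197 to 3651 CPM in WT untransformed libraries. With p210, 2 of 10 of these markers fell in KO and 8 of 10 in WT lines. Their part in the cell cycle and ribosome lists was not tested.

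Of 10 genes known to be repressed by MYC, 3 rose and 1 fell with p210 in KO lines (median 0.14), and 4 rose and 0 fell in WT lines (median 0.32). The kinase inhibitor gene Cdkn2b rose by 4.08 ± 0.51 in KO (adjusted p = 0.000154) and 5.33 ± 0.49 in WT lines (adjusted p = 2.18e-05). Cdkn1a, which encodes p21, rose by 1.60 ± 0.26 in KO (adjusted p = 0.000740) and 1.77 ± 0.25 in WT lines (adjusted p = 0.000247), and the stress gene Gadd45a by 0.98 ± 0.30 in KO (adjusted p = 0.0252, lost without KO untransformed replicate 1 or 3 or KO p210 replicate 1 or 2) and 2.03 ± 0.30 in WT lines (adjusted p = 0.000349). Txnip, a glucose-responsive gene also known as a target of MLX partners, fell by 1.19 ± 0.19 in KO lines (adjusted p = 0.000611) and was at -0.13 ± 0.19 in WT lines (adjusted p = 0.611).

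Of 8 co-repressor genes of the SIN3 and histone deacetylase complexes, which MXD proteins recruit, 2 rose and 4 fell with p210 in KO lines (median -0.19), and 1 rose and 4 fell in WT lines (median -0.28). Hdac2 fell by 0.34 ± 0.06 in KO (adjusted p = 0.00106) and by 0.49 ± 0.06 in WT lines (adjusted p = 0.000125), and Sap30 fell by 1.04 ± 0.14 in KO lines (adjusted p = 0.000286). The falls in WT lines numbered 2 with the line as a block and without WT untransformed replicate 4, WT p210 replicate 2 or 3, any KO untransformed library or KO p210 replicate 4. The rises in KO lines numbered 1 with the line as a block and without KO untransformed replicate 1 or 3 or KO p210 replicate 1, 2 or 3, and 0 without KO untransformed replicate 2.

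Among 12 co-activators 4 rose and 1 fell in KO (median 0.08), and 2 rose and 3 fell in WT lines (median -0.11), with Cdk9, the elongation kinase, higher by 0.42 ± 0.07 in KO (adjusted p = 0.00111) and 0.46 ± 0.07 in WT lines (adjusted p = 0.000500). With the line as a block these counts were 2 up and 0 down in KO, and 1 up and 1 down in WT lines. Leaving out any of 10 libraries, each WT untransformed and each KO untransformed library among them, reduced the rises in WT lines to 1, and without KO p210 replicate 3 or 4 the falls there numbered 5. In KO lines the rises numbered 2 without KO untransformed replicate 1. The single fall was lost without KO untransformed replicate 1 or 3 or KO p210 replicate 2 or 4, and 2 fell without KO p210 replicate 1. Among 12 genes that act on MYC protein stability 5 rose and 0 fell in KO (median 0.20), and 2 rose and 1 fell in WT lines (median 0.05). With the line as a block 3 rose in KO, as without KO untransformed replicate 3, and in WT lines 2 rose and 0 fell. Pim1, whose kinase stabilises MYC protein, rose by 0.63 ± 0.18 in KO (adjusted p = 0.0151, lost without KO untransformed replicate 3) and 0.64 ± 0.17 in WT lines (adjusted p = 0.0115, lost without WT p210 replicate 2). Aurka rose by 0.61 ± 0.14 in KO lines (adjusted p = 0.00543), and its 0.42 ± 0.14 in WT lines (adjusted p = 0.0287) was lost in 11 of 27 alternatives, without WT untransformed replicate 3 or 4 or WT p210 replicate 1 or 2 among them. Protein levels were not measured.

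Between KO and WT untransformed lines 10 pathway genes passed, where 15.2% of all genes passed, 8.73% higher and 6.5% lower. Falls numbered 2 of 25 ribosome biogenesis targets (median -0.16, all genes -0.02), 2 of 25 metabolism and translation targets (median -0.18) and 2 of 12 cell cycle targets (median -0.16), and 2 of 10 MYC-repressed genes rose (median 0.69), with 1 co-repressor and 1 protein stability gene the other falls. They included Tfam at -0.39 ± 0.07 (adjusted p = 0.00911), Ccnb1, which encodes cyclin B1, at -0.69 ± 0.14 (adjusted p = 0.0112), Tcof1 at -0.40 ± 0.10 (adjusted p = 0.0201), Nop58 at -0.46 ± 0.12 (adjusted p = 0.0254) and Gadd45a at 1.04 ± 0.30 (adjusted p = 0.0373). All 10 pathway genes called in this comparison were lost without KO untransformed replicate 2 (adjusted p = 0.0528 to 0.170), and 8 of them without KO untransformed replicate 1. The ribosome falls numbered 1 without WT untransformed replicate 4 and 4 when KO untransformed replicate 3 or WT p210 replicate 1 or 3 was left out, and without WT p210 replicate 3 and KO p210 replicate 4 the metabolism falls numbered 5 and 6. Library size scaling gave 6 of 25 falls in each of these lists. Of the proliferation markers 6 of 10 fell here, and 2 without KO untransformed replicate 2. All 14 tested neutrophil and monocyte markers had positive fold changes, with a median of 1.80 and 2 past the threshold, or 0 to 4 when each library was left out. All 8 tested erythroid and megakaryocyte markers had negative fold changes, with a median of -1.80 and 3 past the threshold, or 0 without KO untransformed replicate 2 and 6 without WT p210 replicate 3. The erythroid and megakaryocyte markers summed to 962 to 1571 CPM in KO untransformed and 2206 to 5738 CPM in WT untransformed libraries. Their part in these counts was not tested.

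In p210 lines KO over WT gave 1 rise and 1 fall over the pathway lists, where 4.44% of all genes passed, 0.882% higher and 3.56% lower. Mthfd2, a mitochondrial folate enzyme gene, rose by 0.78 ± 0.18 (adjusted p = 0.0304, lost without any of the 3 WT p210 libraries or KO p210 replicate 4), and Tert, the telomerase gene, fell by 3.21 ± 0.77 (adjusted p = 0.0360, lost without any of 9 libraries). The lineage markers leaned the same way here as in untransformed lines. All 14 tested neutrophil and monocyte markers had positive fold changes, with a median of 1.91 and 0 past the threshold. Of 8 tested erythroid and megakaryocyte markers 7 had negative fold changes, with a median of -2.64. Of these markers 3 passed lower, or 1 to 4 when each library was left out. Their part in the pathway values was not tested. The interaction called 0 pathway genes.

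**Figure D4:**
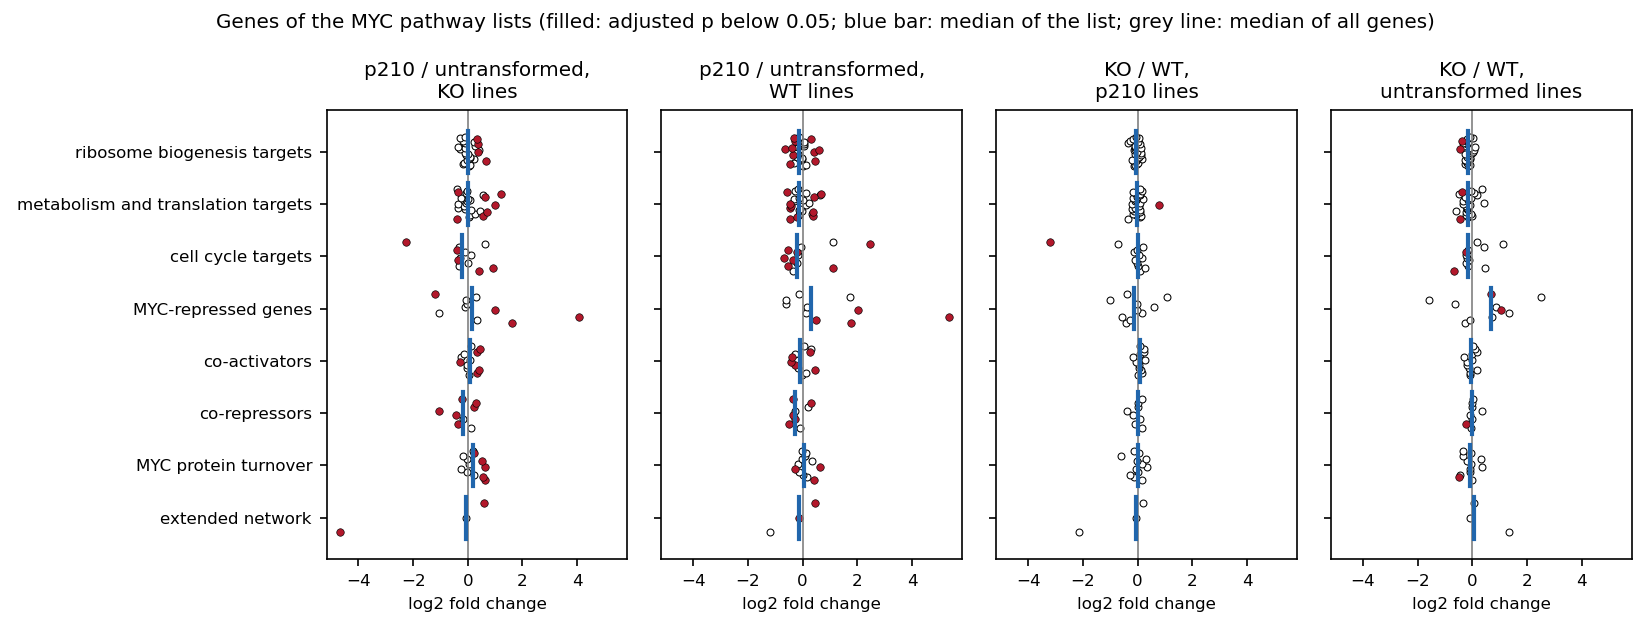
Log2 fold changes of the genes of 8 MYC pathway lists in the 4 comparisons, with a point per gene, filled for an adjusted p below 0.05, a blue bar at the list's median and a grey line at the median of all genes. The filled points of the ribosome biogenesis list lie right of 0 in KO lines and on both sides in WT lines for p210 over untransformed, and the point farthest right is Cdkn2b at 5.33.

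The genes whose log2 CPM followed each member most closely over the 14 libraries were sought among 9800 genes with at least 5 CPM, as a description in which all points share libraries and scaling. Mnt was followed most closely by Arih2 (r = 0.974), Snrpa (r = 0.969) and H2afv (r = 0.965), Mxd4 by Arf1 (r = 0.929), Mxi1 by Gde1 (r = 0.840) and Mxd1 by Ibtk (r = 0.898). Myc was followed by Mrm1 (r = 0.871), Eif3j1 (r = 0.839) and Lsm11 (r = 0.825). Mxd3 was followed by Syt11 (r = 0.932) and by the mast cell and basophil gene Fcer1a (r = 0.920), which had 129 to 478 CPM in KO p210, 752 to 960 CPM in WT p210, 608 to 851 CPM in KO untransformed and 646 to 2236 CPM in WT untransformed libraries. Mast cell and basophil markers summed to 7359 to 11037 CPM in KO p210, 4322 to 14133 CPM in WT p210, 2815 to 3105 CPM in KO untransformed and 1318 to 5968 CPM in WT untransformed libraries. In KO lines this sum was thus higher with p210, whereas Fcer1a was lower. Of the 8 markers 5 had positive and 3 negative fold changes with p210 in KO lines, and 4 and 4 in WT lines. The part of these markers in the Mxd3 values was not tested.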

How the data were processed

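RNA of 14 mouse HPC-LSK libraries was read as 50 bp single ends after SENSE mRNA-Seq preparation, per the labels' protocols. Per the submitters' processing notes, the tools were STAR, Trimmomatic and featureCounts, and the build was GRCm38. The deposited counts are raw reads per gene from featureCounts 1.5.1 with reverse-stranded counting on GENCODE M13, per the file headers, so antisense neighbours are counted apart. The last column of the deposited files has no name. Its values equal TPM recomputed from the authors' counts and gene lengths within 0.0490 TPM, and were used only for levels per length. No source used here gives versions of STAR or Trimmomatic.

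The members, the lists and the rule for named genes were chosen with earlier results of these data known. Of 50686 genes, 14512 passed filterByExpr (minimum count 10, minimum total 15). All 14 libraries entered 1 fit by group in edgeR 4.0.16 (R 4.3.3, limma 3.58.1), by its robust quasi-likelihood test with TMM scaling, Benjamini-Hochberg adjustment over all genes tested and 5 contrasts. The script was tested on simulated data. Alternatives were RLE, upper quartile and library size scaling, no filter, DESeq2 1.42.0, limma-voom, replicate and line blocks, the code of the descriptions, only the groups compared, and leaving out each library. Code and letter were read as the line. Deviations from group means of same-line libraries correlated at 0.163, 0.114 and 0.123 in WT and at 0.0620, 0.0800 and 0.0207 in KO lines. Beyond members, the text names up to 3 genes per list and direction, in order of adjusted p, and the genes most like each Mxd-type gene and Myc. Mycl passed the filter only through untransformed libraries and was left out of the counts of members called. A gene that the rule names is not reported here.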

Additional observations from a re-analysis of the deposited data

Results flagged for a closer look

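Mycl in WT untransformed replicate 1 stood at 0.494 CPM (11 counts), against 0 to 0.0502 CPM in the other 3 WT untransformed libraries, a gap of 0.898 of the group's whole range. It was the only gap of this kind among 21 groups of 4 libraries examined over the members and Cdk6, and chance alone gives about 1 in 20. Groups of 3 libraries were not examined. No explanation was tested.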

How the results depend on the processing

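The number called among the 9 members other than Mycl depended on the setting. KO over WT in untransformed lines gave 3, against 5 with DESeq2 and 1 in the first code alone. It gave 1 without both WT untransformed replicate 3 and KO p210 replicate 2, and 0 to 4 when each library was left out. In p210 lines KO over WT gave 0, against 1 with DESeq2 and 0 to 1 with each library left out. For p210 over untransformed, KO lines gave 2, against 0 to 3 with each library left out. They gave 1 with no filter, limma-voom, the replicate number as a block, the line as a block, or without both libraries named above. WT lines gave 2, against 2 to 4 with each library left out. The test of a difference between genotypes called 0 members in every setting run. The share of all genes called moved with the setting as well. For KO over WT in untransformed lines it was 15.2%, against 24.1% with DESeq2 and 3.05% in the first code alone. It was 6.42% without both libraries named and 1.2% to 18.2% with each library left out. In p210 lines it was 4.44%, against 10% with DESeq2 and 1.92% to 5.03% with each library left out. For p210 over untransformed, leaving out each library gave 26.6% to 38.4% in KO and 31.3% to 40.7% in WT lines. In KO lines the share was 37.2%, against 16.9% with no filter, 36.9% with limma-voom and 33.8% with the replicate number as a block. It was 24.7% with the line as a block and 34% without both libraries named. The line as a block lost the call of Mxd1 in KO lines and changed no other call of these members in the p210 comparisons. KO and WT libraries sharing a replicate number deviated together by -0.0814 to 0.119 in correlation, and the number as a block left 3 calls in untransformed and 0 in p210 lines. The cause of these shifts was not tested, and the codes hold 1 or 2 libraries a group. The second code holds 1 library in the KO untransformed group and 1 in the WT p210 group. A call held or lost in the second code alone can therefore not be weighed, and counts of calls there are not given.

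Directions turned for members that were not called. For KO over WT in untransformed lines Myc was -0.010 with RLE, -0.048 with upper quartile, -0.098 with library size scaling, -0.010 with DESeq2, -0.078 with the code as a term, -0.23 in the second code alone, -0.078 without both libraries named and -0.11 to 0.10 with each library left out, and Mxd3 was 0.022 in the first code alone. In p210 lines KO over WT gave for Mxi1 -0.0096 with library size scaling, -0.050 with the number as a block, -0.17 in the first code alone and -0.14 to 0.23 with each library left out. It gave for Mnt -0.025 with library size scaling, -0.087 in the first code alone and -0.010 to 0.12 with each library left out. Left-out libraries gave Myc -1.06 to 0.13 and Max -0.090 to 0.022, and the second code alone gave Myc 0.88 and Max 0.019. For p210 over untransformed in WT lines Mxi1 was -0.018 with library size scaling, the second code alone gave Myc -0.97, Mycn -0.68, Max -0.030, Mxd1 -0.25 and Mxi1 -0.014, and left-out libraries gave Myc -0.37 to 0.82 and Mycn -0.11 to 0.95. In KO lines the second code alone gave Myc 0.14, Mycn -0.72 and Mlx 0.038. The difference between genotypes was -0.19 for Mxd1 in the first code alone, -0.061 to 0.99 for Mxd1 with each library left out, and 0.020 for Mxd4 in the second code alone. Depth limited only Mycl, with 0 to 18 counts a library.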
